A study of Rattus norvegicus with 20 samples.

Results

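Fibrillar collagens are the cables of the extracellular matrix. In liver they lie mostly around the vessels and in the capsule, and are made largely by stellate cells and fibroblasts rather than by hepatocytes. Lysyl oxidase, the product of Lox, is a secreted copper enzyme that oxidises lysines of collagen and elastin so that neighbouring molecules can become cross-linked. Small proteoglycans such as decorin, lumican and biglycan bind the fibrils, Sparc encodes a collagen-binding matrix glycoprotein, and Timp1 encodes an inhibitor of the metalloproteinases that degrade matrix.

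The mRNA abundances of 10 matrix genes (Lox, Col1a1, Col1a2, Col3a1, Col5a2, Dcn, Lum, Bgn, Sparc and Timp1) were followed in rat liver. They were chosen by name, and every ProbeSet that the RAE230A array annotation assigned to them was used, which gave 15 of the 15923 ProbeSets and 10 of the 10412 genes with a symbol of their own. Male rats 10 to 12 weeks old came from the colonies of 1 institute and were killed 19 hours after corn oil by gavage. Each of 5 groups held 4 rats, with 1 rat per array. Line-A and H/W (Han/Wistar, Kuopio) carried the variant Ahr, and Line-C, L-E (Long-Evans, Turku/AB) and S-D (Sprague-Dawley) carried wild-type Ahr, the gene of the dioxin receptor. Line-A and Line-C descend from crosses of L-E with H/W, so each line is a mixture of both parental genomes and stands for more than its Ahr allele. S-D is outbred, H/W a random-bred closed colony and L-E inbred. The label of the S-D rats reads only control, while the treatment text of the samples gives corn oil for all.

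Signals are log2 values after GC-RMA, and a signal of 4 served as the limit of expression. Over the 20 arrays 7168 ProbeSets reached a mean of 4, among them 11 of the 15 studied here, from 9 of the 10 genes (all but Lum). The median signal of an array lay between 3.47 and 3.69. Hepatocyte identity was plain in every group, since Alb averaged 16.69, 16.69, 16.63, 16.58 and 16.67 in Line-A, Line-C, H/W, L-E and S-D livers. The arrays were scanned on 5 days. S-D arrays had a scan day, a chip lot and an operator of their own, both lines shared 1 day and lot, and H/W and L-E were spread over the other days. H/W replicate 3, the array run on another fluidics station than all others, stood apart: it was the farthest from its group mean for 39.6% of the ProbeSets with a mean of 4 or more, and its GAPDH 3′ minus 5′ signal was 0.81, against 0.17 to 0.42 in Line-A, 0.38 to 0.50 in Line-C, 0.33 to 0.47 on the other H/W arrays, 0.23 to 0.34 in L-E and 0.54 to 0.58 in S-D. S-D arrays thus lay above all arrays of Line-A, Line-C and L-E in this sign of RNA quality, but only for GAPDH. For beta-actin the same difference averaged 1.95, 2.06, 2.03, 1.79 and 2.02 in Line-A, Line-C, H/W, L-E and S-D. For hexokinase it averaged −0.38, −0.37, −0.33, −0.31 and −0.31 in the same order. S-D arrays lay above those of L-E for beta-actin, and overlapped those of Line-A and Line-C for both controls. Ahr itself read below the limit in every group (mean signal 3.07 to 3.14), so these arrays give no check of the Ahr labels.

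Promoter sequence from RefSeq (build GRCr8, the Brown Norway reference and not these strains) was matched for Col1a2, Col5a2, Lum, Sparc and Timp1. Stretches of 100 bases of Col1a2 and Col5a2 are shown because both genes belong to the collagen group that was most abundant in S-D livers. In Col1a2 (chr4:33518307-33518406, plus strand) the capitals mark CCAAT on the opposite strand and TATAAA, and in Col5a2 (chr9:55090202-55090301, minus strand) they mark CAGAC, the letters bound by SMAD proteins of the TGF-beta pathway. The Col1a2 stretch also holds CAGAC on the opposite strand, 156 to 152 bases before the annotated start, which is left in lower case.
Col1a2: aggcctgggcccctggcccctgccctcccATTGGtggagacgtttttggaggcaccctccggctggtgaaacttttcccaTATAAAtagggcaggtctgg
Col5a2: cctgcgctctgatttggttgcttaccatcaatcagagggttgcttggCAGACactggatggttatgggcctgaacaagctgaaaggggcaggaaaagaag
In the 250 bases before the annotated start, searched on both strands, TATAAA was found in 1 of the 5 promoters, CCAAT in 2, CAGAC in 4 and GCGTG (the core of the site bound by AHR with ARNT) in 1, that of Lum. Among 27457 promoters of the same length the shares were 13.1% for TATAAA, 34.3% for CCAAT, 42.8% for CAGAC and 27.2% for GCGTG. No match overlapped a match of another motif. For Col1a2 the table's sequence after the annotated start opens with ATG, so that start may be the coding one, and its matches cannot be placed relative to the start of transcription. Such matches describe letters in the reference and are no evidence of binding.

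Lox differed between the lines more than any other of the 10 genes, and its pattern over the 5 groups was not that of the collagens. Its brighter ProbeSet, 1368171_at, read 8.71, 10.07, 9.27 and 9.07 in Line-A livers, against 2.39, 2.45, 3.12 and 2.48 in Line-C livers. All Line-A rats thus lay far above the limit of expression and all Line-C rats below it. The difference, Line-A minus Line-C, was 6.67 ± 0.95 log2 (SE, n = 4 rats per group, limma, adjusted p = 0.0009995). Because Line-C lay below the limit, Line-A was at least 38.8-fold higher, with Line-C set to the limit. The second ProbeSet, 1368172_a_at, averaged 7.06 ± 0.57 in Line-A and 3.63 ± 0.11 in Line-C livers (SD), a difference of 3.43 ± 0.52 log2 (SE, adjusted p = 0.001782). These were the only 2 of the 15 ProbeSets called between the lines at an adjusted p under 5%, where 1.39% of all ProbeSets were called.

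In the parental strains Lox was scattered. The 4 H/W rats read 5.86, 2.42, 8.23 and 2.45 at 1368171_at, against 6.10, 5.26, 6.92 and 7.71 in L-E. H/W thus held rats as low as Line-C beside 1 rat near the level of Line-A, and the reading of 2.42 and that of 8.23 came from the same scan day. H/W minus L-E was −1.76 ± 0.95 log2 (95% interval −3.76 to 0.25, adjusted p = 0.31), and the second ProbeSet gave −0.81 ± 0.52 (adjusted p = 0.36). Without H/W replicate 3, the array that stood apart, the difference at 1368171_at was −2.92 (adjusted p = 0.016), in a fit that called 38.5% of all ProbeSets for this pair. Over the 2 arrays of H/W and 3 of L-E that shared a scan day it was −1.30 (not called), and with scan day as a fixed block −0.99 (adjusted p = 0.84). No member ProbeSet was called between H/W and L-E, where 3.31% of all ProbeSets were called (527 by limma), and 1 of the 15 had an unadjusted p under 0.05.

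The 2 contrasts of a variant with a wild-type Ahr group thus had opposite signs for Lox. Their difference, H/W minus L-E less Line-A minus Line-C, was −8.43 ± 1.34 log2 at 1368171_at (adjusted p = 0.0024) and −4.24 ± 0.74 at 1368172_a_at (adjusted p = 0.0047). No other member was called in this test, which called 2.01% of all ProbeSets. In the model with shares of the parental strains and an Ahr term, both Lox ProbeSets were called for the Ahr coefficient, where 0.659% of all ProbeSets were called. In this design that coefficient equals Line-A minus Line-C for every ProbeSet, so it holds no information from H/W and L-E, and the difference between the lines cannot be told apart from any other locus at which the lines differ.

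S-D was the group whose Lox came closest to Line-A. S-D rats read 8.77, 9.41, 9.86 and 9.31 at 1368171_at, within the range of Line-A, and Line-A minus S-D was −0.06 ± 0.95 log2 (95% interval −2.07 to 1.95). At 1368172_a_at the averages were 7.06 ± 0.57 in Line-A and 8.17 ± 0.47 in S-D (SD), a difference of −1.11 with a 95% interval of −2.21 to −0.01 (adjusted p = 0.088). Line-C fell 6.73 ± 0.95 log2 below S-D at 1368171_at (adjusted p = 0.00020), at least 40.5-fold with Line-C at the limit. H/W lay 4.60 ± 0.95 below S-D (adjusted p = 0.0062), and L-E, though all its rats were below all S-D rats, did not pass at this ProbeSet (−2.84 ± 0.95, adjusted p = 0.073) but did at the other (−2.72 ± 0.52, adjusted p = 0.0026).

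By mean level the order of Lox from the lowest group was Line-C, H/W, L-E, Line-A and S-D at both ProbeSets. The neighbours Line-C and H/W, H/W and L-E, and Line-A and S-D were not called as different at either ProbeSet, although before adjustment the 95% interval excluded 0 for Line-C minus H/W at 1368171_at (−4.13 to −0.12) and for Line-A minus S-D at 1368172_a_at. Line-A exceeded both parents, by 4.54 ± 0.95 log2 over H/W (adjusted p = 0.0076) and by 2.78 ± 0.95 over L-E (adjusted p = 0.042). Line-C was below L-E by 3.88 ± 0.95 log2 (adjusted p = 0.016), and Line-C minus H/W was −2.13 (adjusted p = 0.30). The call of Line-A over L-E at 1368171_at was lost with scan day as a random block (adjusted p = 0.15), with equal array medians (0.053), with a further quantile normalization (0.051) and without any 1 of 14 of the 20 arrays (0.050 to 0.11), and that of Line-C under L-E with the random block (0.13). When only the arrays of the 2 groups were fitted, Line-A minus H/W and H/W minus S-D were not called at this ProbeSet (adjusted p = 0.16 and 0.12). At 1368172_a_at the random block ended the calls of Line-A over H/W (adjusted p = 0.055), Line-A over L-E (0.14) and Line-C under L-E (0.19).

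**Figure D1:**
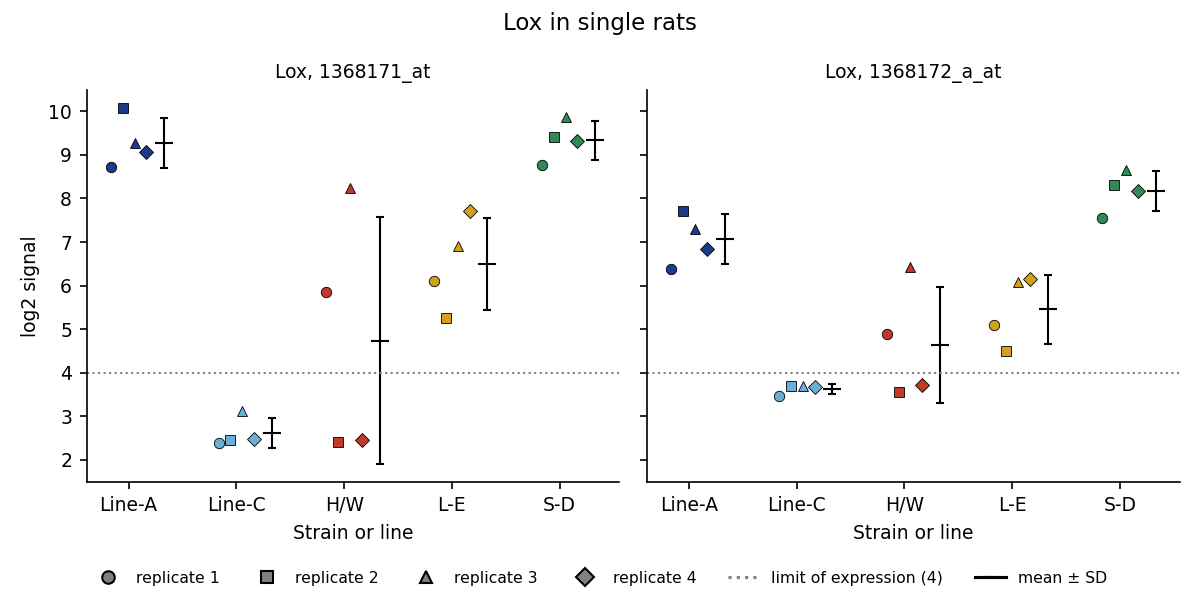
Log2 signal of both Lox ProbeSets (y axis) in single rats of the 5 groups (x axis). Symbols are replicates, black bars the mean ± SD of 4 rats, and the dotted line the limit of expression at 4. All Line-A and S-D rats sit above 6 and all Line-C rats below 4, while H/W rats span 2.42 to 8.23 at 1368171_at.

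The fibrillar collagens did not follow Lox. All 4 were highest in S-D livers and close to each other in the other groups. Col1a1, a chain of type I collagen, read 4.63, 4.61, 4.61 and 4.52 for Line-A rats, 4.60, 5.19, 5.60 and 4.69 for Line-C rats, 4.63, 4.62, 5.21 and 4.47 for H/W rats, 4.59, 4.07, 4.65 and 4.54 for L-E rats, and 7.22, 7.96, 5.13 and 8.55 for S-D rats (1388116_at). S-D replicate 3 lay inside the range of Line-C and H/W, and the other S-D rats stood clear of every other rat. The 4 other groups lay 2.19 to 2.75 log2 below S-D (SE 0.49 each), with adjusted p-values of 0.0018, 0.0090, 0.0047 and 0.0015 for Line-A, Line-C, H/W and L-E. The call for Line-C was lost with scan day as a random block (adjusted p = 0.10), and those for H/W and L-E when only the arrays of the 2 groups were fitted (0.11 and 0.066).

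Col1a2 encodes the second chain of type I collagen, and with Col1a1 it builds the most abundant collagen of fibrous tissue. At 1370155_at it read 4.57, 4.37, 4.54 and 4.58 for Line-A rats, 4.53, 5.22, 5.48 and 4.56 for Line-C rats, 4.57, 4.54, 4.57 and 4.55 for H/W rats, 4.28, 4.30, 4.46 and 4.45 for L-E rats, and 6.25, 6.96, 6.03 and 6.62 for S-D rats. No rat of another group reached the lowest S-D rat. The differences from S-D were −1.95, −1.52, −1.91 and −2.09 log2 for Line-A, Line-C, H/W and L-E (SE 0.20 each, adjusted p from 2.9e-06 to 8.5e-05).

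Col3a1 encodes type III collagen. It read 9.13, 9.06, 9.36 and 9.35 for Line-A rats, 9.25, 9.83, 9.96 and 9.06 for Line-C rats, 8.94, 8.70, 9.37 and 8.96 for H/W rats, 8.48, 8.53, 8.98 and 9.03 for L-E rats, and 10.75, 11.14, 10.42 and 11.11 for S-D rats. The means were 9.23 ± 0.15, 9.52 ± 0.43, 8.99 ± 0.28, 8.75 ± 0.29 and 10.85 ± 0.34 (SD) over the Line-A, Line-C, H/W, L-E and S-D rats. Its lowest S-D rat, at 10.42, exceeded the highest rat of any other group, a Line-C rat at 9.96. The differences from S-D were −1.63, −1.33, −1.86 and −2.10 log2 in Line-A, Line-C, H/W and L-E (SE 0.21 each, adjusted p from 6.9e-06 to 0.00064). Col3a1 was also the only one of the 4 called outside the comparisons with S-D, with Line-C 0.77 ± 0.21 log2 above L-E (adjusted p = 0.029), a call that was lost with scan day as a random block (adjusted p = 0.14) and without L-E replicate 1 or 2 or Line-C replicate 2 or 3 (0.063 to 0.095).

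Col5a2, a chain of the type V collagen that co-assembles with type I, was near the limit of expression. Its brighter ProbeSet, 1370895_at, averaged 3.90, 4.03, 3.88 and 3.79 in Line-A, Line-C, H/W and L-E, against 4.75 ± 0.38 in S-D livers (SD), where all 4 rats were above the limit and replicate 3, at 4.31, was level with the highest Line-C rat. Line-A, H/W and L-E, set to the limit, were at least 1.68-fold lower than S-D, and Line-C minus S-D was −0.72 ± 0.14 log2 (adjusted p = 0.0033, and 0.052 with scan day as a random block). The second ProbeSets of these genes were dimmer. That of Col1a2 (1387854_at) passed in Line-A, H/W and L-E against S-D, that of Col1a1 (1370864_at) in Line-A alone and that of Col5a2 (1373463_at), below the limit on all arrays, in L-E alone. Each of these 5 calls was lost with scan day as a random block.

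No ProbeSet of these 4 genes was called between Line-A and Line-C or between H/W and L-E. Line-A minus Line-C was −0.43 for Col1a1 (95% interval −1.47 to 0.61), −0.44 for Col1a2 (−0.85 to −0.02, adjusted p = 0.51), −0.30 for Col3a1 (−0.75 to 0.15) and −0.13 for Col5a2 (−0.42 to 0.17). These intervals lie far from the 6.67 log2 of Lox.

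**Figure D2:**
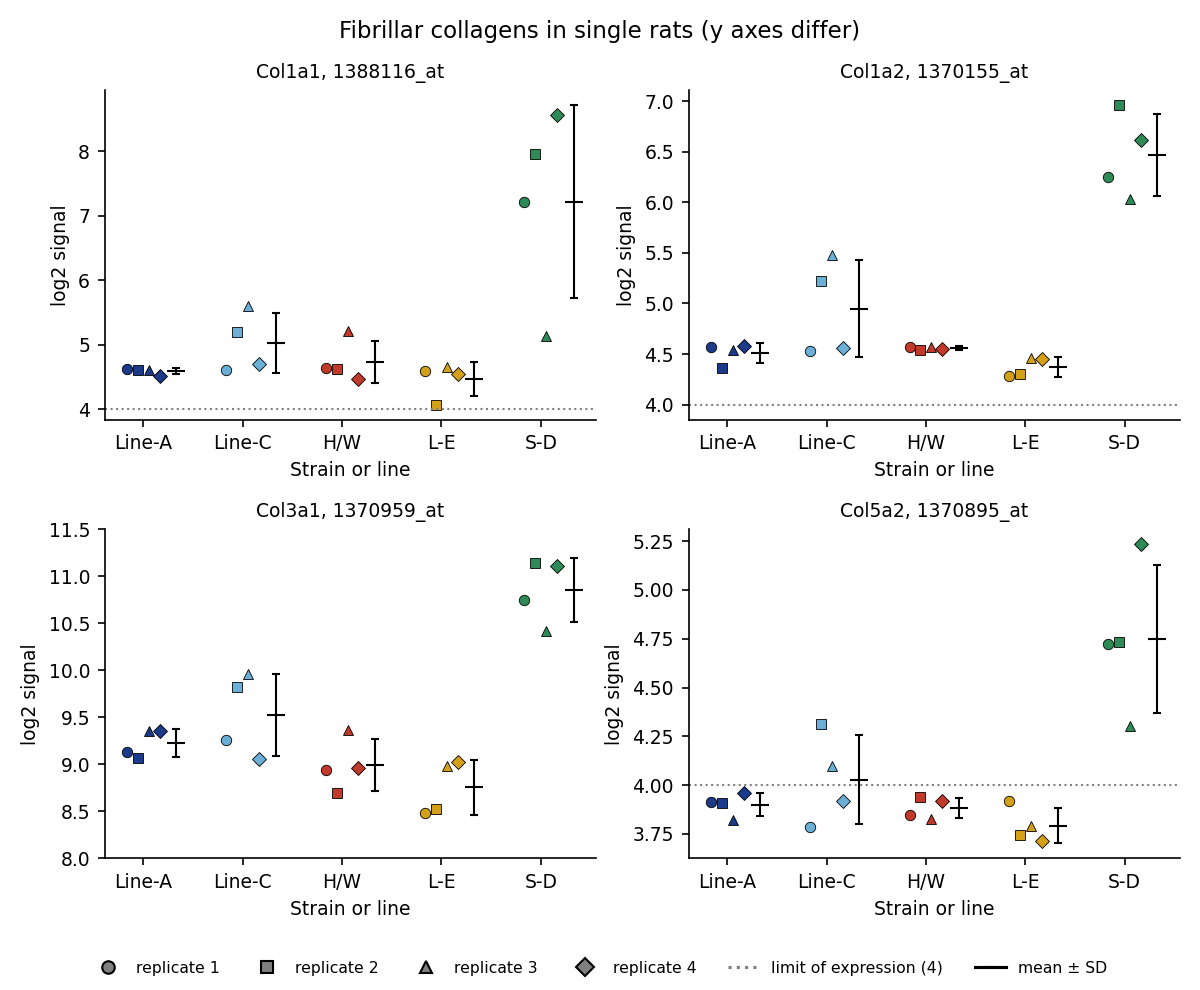
Log2 signal of 4 fibrillar collagens (y axes, which differ) in single rats of the 5 groups (x axis). Symbols are replicates and black bars the mean ± SD of 4 rats; the dotted line marks the limit of expression. S-D rats are highest throughout except replicate 3 at Col1a1 (5.13) and at Col5a2 (4.31), and replicates 2 and 3 of Line-C are its highest rats in all 4 panels.

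Of the small proteoglycans, Bgn (biglycan) was expressed in every rat and was lowest in the lines. Its means were 7.24 ± 0.18, 7.33 ± 0.13, 7.53 ± 0.20, 7.60 ± 0.08 and 7.94 ± 0.18 (SD) over the Line-A, Line-C, H/W, L-E and S-D rats. The differences from S-D were −0.70 for Line-A (adjusted p = 0.00037), −0.61 for Line-C (adjusted p = 0.0016), −0.41 for H/W (adjusted p = 0.030) and −0.34 for L-E (adjusted p = 0.057). Line-A was also 0.35 log2 lower than L-E (adjusted p = 0.030). The calls of H/W under S-D and of Line-A under L-E were lost with scan day as a random block (adjusted p = 0.12 and 0.16), and the first was also lost without any 1 of 4 arrays and the second without any 1 of 5.

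Dcn (decorin) varied more within groups than between them. It read 3.07, 4.44, 4.44 and 2.83 for Line-A rats, 4.43, 4.81, 4.72 and 4.42 for Line-C rats, 2.67, 2.38, 5.98 and 2.95 for H/W rats, 4.56, 4.09, 4.73 and 4.42 for L-E rats, and 4.99, 5.56, 4.0015 and 5.51 for S-D rats. The highest of all 20 readings was that of H/W replicate 3, while the other 3 H/W rats were below the limit. None of the 10 pairs of groups was called by limma, and 2 had an unadjusted p under 0.05. The within-group share of its variance was 0.81, against 0.10 for Col1a2, 0.13 for Col3a1 and 0.20 for Lox. Lum (lumican) stayed below the limit in 18 rats and reached 4.82 in Line-C replicate 2 and 4.12 in S-D replicate 4.

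The 2 ProbeSets of Sparc gave different orders of the groups. At 1367562_at the means were 7.29 ± 0.12, 7.41 ± 0.12, 7.99 ± 0.55, 8.05 ± 0.20 and 8.78 ± 0.46 (SD) for Line-A, Line-C, H/W, L-E and S-D, so that the lines were lowest. At 1367563_at they were 8.23 ± 0.13, 8.45 ± 0.17, 7.60 ± 0.40, 7.17 ± 0.27 and 8.19 ± 0.28 in the same groups, so that the lines were above both parents. At this second ProbeSet Line-A exceeded H/W by 0.63 ± 0.18 log2 (adjusted p = 0.049) and L-E by 1.06 ± 0.18 (adjusted p = 0.0012), and Line-C exceeded them by 0.84 ± 0.18 (adjusted p = 0.013) and 1.28 ± 0.18 (adjusted p = 0.00041). Over the 20 arrays the 2 ProbeSets had r = −0.22, while the pairs of Lox, Col1a1, Col1a2 and Col5a2 had r of 0.97, 0.80, 0.85 and 0.77. No direction is therefore given for Sparc.

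The H/W rats split along the same axis. H/W replicate 4, alone on its scan day, read 7.27 at 1367562_at and 8.14 at 1367563_at, inside the range of Line-A at both, whereas the other 3 H/W rats read 7.99 to 8.60 and 7.25 to 7.68. The lines, too, had a scan day of their own. The part of scan day in this pattern was not tested beyond the random block, under which neither line differed from H/W at 1367563_at (adjusted p = 0.20 for Line-A and 0.079 for Line-C). The call of Line-A over H/W was also lost without any 1 of 16 of the 20 arrays.

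**Figure D3:**
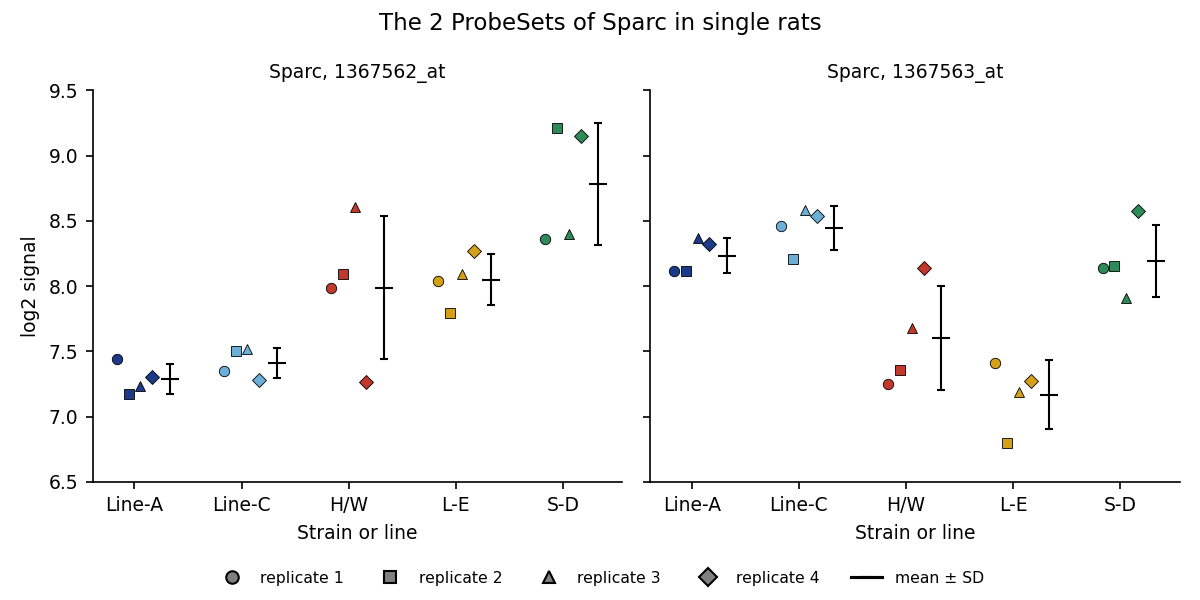
Log2 signal of the 2 Sparc ProbeSets (y axis) in single rats of the 5 groups (x axis), with symbols for replicates and black bars for the mean ± SD of 4 rats. The lines are lowest at 1367562_at (7.29 and 7.41 on average) and above both parents at 1367563_at (8.23 and 8.45).

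Timp1 was low and even. Its level was 4.47 ± 0.24, 4.68 ± 0.39, 4.60 ± 0.07, 4.55 ± 0.02 and 4.92 ± 0.27 (SD) for Line-A, Line-C, H/W, L-E and S-D. Line-A minus S-D was −0.44 ± 0.16 log2 (adjusted p = 0.046), a call lost without any 1 of 13 of the 20 arrays, and no other pair was called. The call was also lost with scan day as a random block (adjusted p = 0.17) and with the replicate number as a block (0.061). A further quantile normalization (0.088) and a fit of only the 2 groups (0.056) ended it too.

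Over the 15 ProbeSets, 9, 8, 8 and 8 were lower in livers of Line-A, Line-C, H/W and L-E than in those of S-D at an adjusted p under 5%. Over all ProbeSets the share called lower was 8.17%, 5.26%, 4.45% and 5.55% for the same pairs, and no member was called higher than S-D by limma or had an unadjusted p under 0.05 in that direction, against 29.3%, 6.91%, 2.38% and 4.04% of all ProbeSets. The median difference of the 15 was −0.85, −0.72, −0.87 and −0.96 log2, against 0.07, 0.06, 0.04 and 0.003 for all ProbeSets. These 4 comparisons share the S-D arrays and are not separate evidence. Between the lines and their parents the members were called less evenly: 3 for Line-A minus H/W (6.39% of all ProbeSets), 5 for Line-A minus L-E (27.5%), 1 for Line-C minus H/W (3.89%) and 4 for Line-C minus L-E (15.8%). At an adjusted p under 1% these last 3 pairs had 1, 0 and 1 members called, where 5.66%, 1.7% and 3.71% of all ProbeSets were called. The F-test over the 5 groups called 6 of the 15 at an adjusted p under 0.1% (4.6% of all ProbeSets): both of Lox and 1 each of Col1a2, Col3a1, Col5a2 and Sparc.

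**Figure D4:**
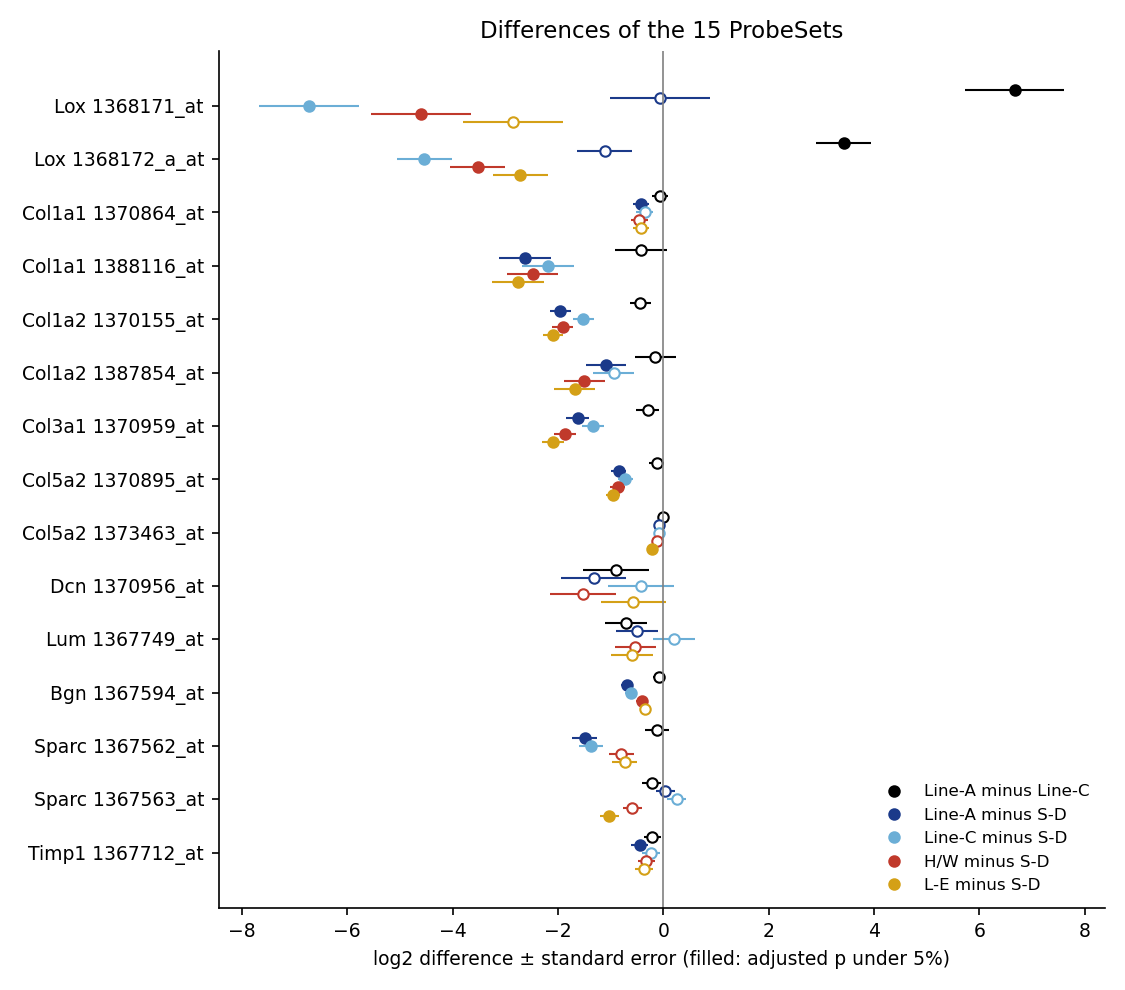
Log2 difference ± SE (x axis) of each of the 15 ProbeSets (y axis) for Line-A minus Line-C and for each group minus S-D. Filled points have an adjusted p under 5%. Only Lox is called between the lines (6.67 and 3.43), and the collagens lie below S-D in all 4 groups.

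S-D livers differed in more than these genes. Of 24 stellate cell and fibroblast markers on the array, 12 were expressed, and their mean level ran from 5.99 to 6.07 over the rats of Line-A, 6.11 to 6.28 over those of Line-C, 6.03 to 6.24 for H/W, 5.90 to 6.04 for L-E and 6.45 to 6.61 for S-D. Among all 10412 genes, the shares called lower in Line-A, Line-C, H/W and L-E than in S-D were 8.99%, 5.49%, 4.97% and 6.44%, and those called higher 26.3%, 6.72%, 2.56% and 4.02%. Of the 24, limma called 5, 2, 4 and 6 lower in Line-A, Line-C, H/W and L-E than in S-D and 5, 0, 0 and 1 higher. The 5 higher in Line-A were all below the limit on average and differed by 0.06 to 0.19 log2, and the 1 higher in L-E was Cxcl12, a chemokine, at 11.87 in L-E and 11.0041 in S-D (adjusted p = 0.0039). Vim (vimentin) averaged 6.74, 7.26, 7.13, 7.11 and 8.56 in Line-A, Line-C, H/W, L-E and S-D, and all 4 groups were called lower than S-D. Lrat, the vitamin A esterifying enzyme of quiescent stellate cells, averaged 4.57, 4.84, 4.51, 3.68 and 5.23. Acta2 (smooth muscle actin, a sign of activated stellate cells) averaged 4.55, 4.73, 5.21, 5.40 and 5.44, Pdgfrb lay between 4.11 and 4.43, and Des (desmin) was below the limit in every group (2.953 to 3.0045). Mean levels of the 5 expressed endothelial markers were also highest in S-D (8.40 to 8.54 over its rats), against 7.75 to 8.01 for Line-A, 7.71 to 8.06 for Line-C, 7.83 to 8.19 for H/W and 8.08 to 8.19 for L-E, although Pecam1 was below the limit in every group. Of the 9 Kupffer cell and macrophage markers, all expressed, 8, 3, 7 and 3 were lower in Line-A, Line-C, H/W and L-E than in S-D and 0, 1, 0 and 1 higher, and their mean level over rats was 7.34 to 7.48 for Line-A, 8.05 to 8.33 for Line-C, 7.76 to 8.07 for H/W, 7.93 to 8.54 for L-E and 8.18 to 8.62 for S-D. The 3 expressed of 5 mesothelium and capsule markers averaged 8.57 to 8.80, 8.35 to 9.11, 8.31 to 8.78, 8.35 to 8.50 and 8.97 to 9.42 in the same groups, although the mesothelial Msln and Wt1 were below the limit. As keratins were also on that list, this level cannot be read as mesothelium or capsule. Hepatocyte markers overlapped (13.50 to 13.75 in S-D, 13.30 to 13.85 elsewhere). In bulk liver, fewer cells of a type and less RNA per cell cannot be told apart, and S-D cannot be told apart from its scan day, chip lot and operator. The part of these markers and of the GAPDH signal in the collagen differences was not tested.

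For Lox between the lines the mean levels of the markers ran in different directions. The stellate and fibroblast level was 5.99 to 6.07 in Line-A and 6.11 to 6.28 in Line-C, and the expressed Kupffer cell and macrophage markers averaged 7.34 to 7.48 in Line-A and 8.05 to 8.33 in Line-C, both lower in the line with more Lox. By limma 1 of the 24 and 3 of the 9 markers were called lower in Line-A and none higher. Over all 10412 genes the shares were 0.701% lower and 0.778% higher. The 3 expressed cholangiocyte markers went the other way on average, with overlap. Their mean level was 6.87 in Line-A (6.09 to 7.31 over its rats) and 5.78 in Line-C (5.25 to 6.86). Of the 7 cholangiocyte markers on the array limma called none between the lines (2 at an unadjusted p under 0.05). Levels of the 5 expressed endothelial markers overlapped (7.75 to 8.01 in Line-A, 7.71 to 8.06 in Line-C). The part of all these markers in the Lox difference was not tested.

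Genes of the same pathway were read from lists. Over all 10412 genes, 8.99%, 5.49%, 4.97% and 6.44% were called lower in Line-A, Line-C, H/W and L-E than in S-D, and 26.3%, 6.72%, 2.56% and 4.02% higher. Of 22 other collagens on the array, 7 were expressed, 6, 5, 5 and 6 were called lower in Line-A, Line-C, H/W and L-E than in S-D, and 4, 1, 1 and 1 higher. Of the 4 higher in Line-A, 3 were below the limit on average, and the differences were 0.07 to 0.40 log2. By limma none of the 22 was called between the lines, also at an unadjusted p under 0.05. Col4a1, a chain of the basement membrane collagen, averaged 6.15, 6.18, 6.04, 6.08 and 7.34 in Line-A, Line-C, H/W, L-E and S-D, like the fibrillar collagens. Col14a1, a fibril-associated collagen, had another order, with 6.86 ± 0.45, 6.37 ± 1.05, 6.59 ± 0.64, 4.52 ± 0.21 and 7.62 ± 0.16 (SD), and was called lower in L-E than in each other group. Col18a1, the collagen from which endostatin is cut, was lowest in S-D, at 10.42, 10.41, 10.86, 10.96 and 10.27.

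Between the lines, 0.701% of all 10412 genes were called lower in Line-A and 0.778% higher. Of 17 enzymes that process or cross-link collagen, 1 was called between the lines: Plod1, a lysyl hydroxylase, averaged 8.33 ± 0.22 in Line-A and 9.04 ± 0.10 in Line-C livers (SD, adjusted p = 0.021), opposite in direction to Lox. It was 8.65 ± 0.37 in H/W, 9.30 ± 0.17 in L-E and 8.32 ± 0.08 in S-D. Against S-D, 2 of the 17 were lower and 2 higher for Line-A, 0 and 1 for Line-C, and 1 and 3 for L-E, while limma called 0 for H/W (4 at an unadjusted p under 0.05). The 2 higher in Line-A were below the limit on average and differed by 0.08 to 0.14 log2. Of 37 glycoproteins and proteoglycans limma called none between the lines (3 at an unadjusted p under 0.05). Against S-D, 4, 3, 4 and 5 of them were lower in Line-A, Line-C, H/W and L-E and 14, 3, 1 and 0 higher. Of the 14, 13 were below the limit on average and the differences were 0.07 to 0.27 log2. Prelp, an anchor of basement membranes, averaged 4.32, 4.46, 4.32, 4.22 and 5.03. Of 23 proteases and inhibitors, 5, 2, 3 and 3 were lower than S-D in the same groups and 7, 1, 0 and 0 higher, the 7 all below the limit. Timp2, the sister inhibitor of Timp1, averaged 5.89, 6.65, 6.02, 6.35 and 7.22. Of 24 genes of TGF-beta signalling, the main fibrogenic pathway, 6, 3, 5 and 5 were lower and none higher, and Tgfb1 averaged 3.29, 3.30, 3.28, 3.32 and 3.92, below the limit in all groups. Median differences from S-D over these 5 lists lay between −0.24 and 0.08 log2.

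Within groups the collagens tended to move together, and Lox less so. As deviations of the 20 rats from their group means, Col1a2 and Col3a1 had Pearson r = 0.83, Col1a1 and Col1a2 r = 0.70, and Col1a1 and Col3a1 r = 0.69. Col5a2 had r = 0.79 with Col1a1, 0.58 with Col1a2 and 0.48 with Col3a1, and without the 2 farthest rats these were 0.34, 0.74 and 0.29. Lox had r = 0.16 with Col1a1, 0.09 with Col1a2, 0.44 with Col3a1 and −0.17 with Col5a2, so that its value with Col3a1 was close to the lowest among the collagens, and no difference between these correlations was tested. The r of Lox with Dcn, 0.67, fell to 0.19 without the 2 rats farthest from their group means, while that with Bgn was 0.54 and then 0.45. These are descriptions over rats that share groups and scan days. Single rats showed this split in S-D but not in every group. S-D replicate 3 was the lowest S-D rat for 8 of the 10 genes, each read at its brightest ProbeSet, and the highest for Lox. Over all ProbeSets with a mean of 4 or more that array was the lowest of its group for 21.9%. H/W replicate 3 was the highest H/W rat for 6 of the 10 genes (39.4% of those ProbeSets), among them Lox, Col1a1, Col1a2 and Col3a1. L-E replicate 2 was the lowest L-E rat for 6 (24%), Lox and Col1a1 among them. In Line-C, replicate 3 was the highest for 7 of the 10 genes (27.9% of those ProbeSets), Lox among them, although its Lox reading of 3.12 stayed below the limit.

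**Figure D5:**
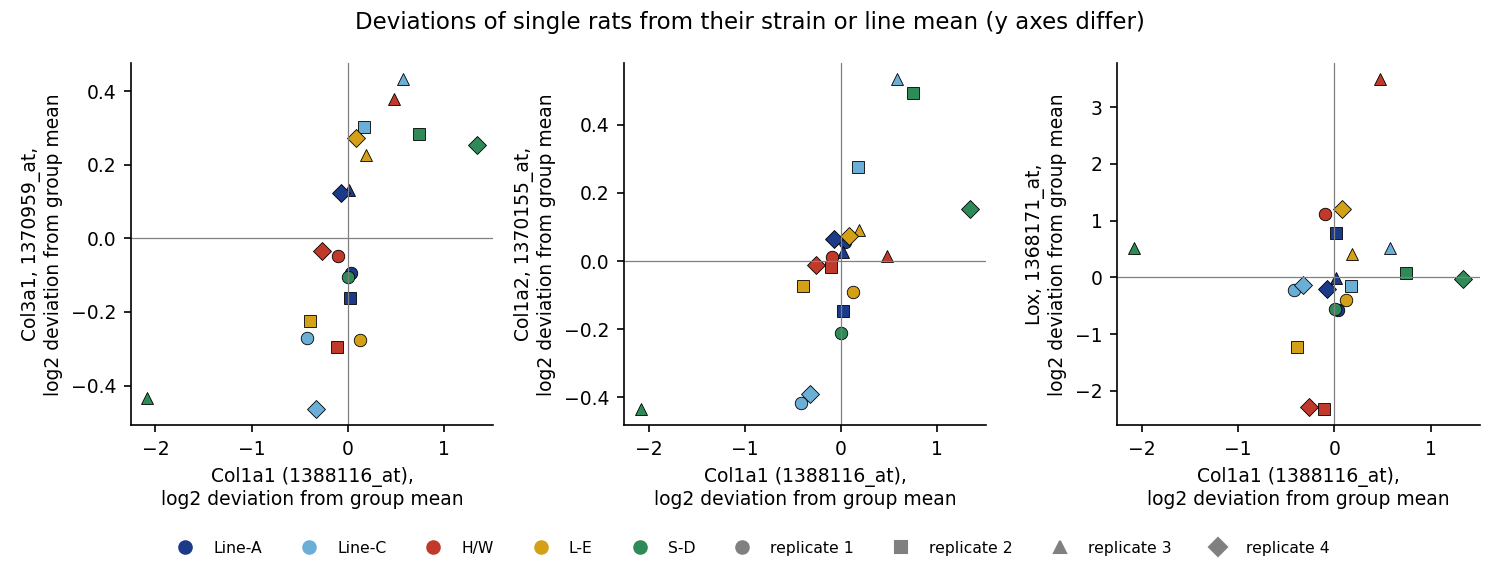
Deviation of each rat from its group mean in log2 units for Col3a1, Col1a2 and Lox (y axes, which differ) against that for Col1a1 (x axis), with colours for groups and symbols for replicates. The collagens rise together (r = 0.69 and 0.70), and Lox has r = 0.16, with S-D replicate 3 low for Col1a1 and above its mean for Lox.

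Over all 20 arrays the 5 genes whose pattern was most like that of Lox, among 5580 genes with a mean of 4 or more in at least 1 group and each at its best correlated ProbeSet, were Aadat (r = 0.90), Prdx5 (0.85), Isoc1 (0.82), Trim2 (0.82) and Hsd11b1 (0.81), none of them matrix genes. Their range was small beside that of Lox: Aadat, an aminotransferase of kynurenine and aminoadipate, averaged 11.63, 11.00, 11.08, 11.24 and 11.55 in Line-A, Line-C, H/W, L-E and S-D. Among the collagens here Col3a1 came closest to Lox, at rank 548 (r = 0.41). For Col1a1 the 5 most alike were Col6a1 (r = 0.96), Col5a2 (0.95), Fstl1 (0.93), Cd93 (0.93) and Col1a2 (0.92), with Col3a1 at rank 9 and Lox at rank 564. Cd93 entered this ranking only through S-D (2.61, 2.61, 2.58 and 2.51 in Line-A, Line-C, H/W and L-E, against 4.66 in S-D), and Col5a2 through S-D and Line-C, so their likeness to a gene high in S-D was partly set by the filter. The points are rats of the same 5 groups, so these values describe group levels as much as single rats.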

How the data were processed

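Liver RNA of 20 rats was hybridised to Affymetrix RAE230A arrays. The deposited values are log2 signals that the authors made with GC-RMA (GCRMA 2.10.0, affy 1.12.0 and R 2.6.1 by the submitters' processing notes), with background by probe GC content, quantile normalization and summary per ProbeSet. They were used without further scaling. The deposited array header files hold no signal values and gave scan day, chip lot, operator and station. Genes came from the platform annotation (12789 ProbeSets with 1 symbol, 312 with several, 2822 with none).

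Linear models with 1 mean per group were fitted to all 15923 ProbeSets in R 4.3.3 with limma 3.58.1 and statmod 1.5.0, with Benjamini-Hochberg adjustment over all ProbeSets. Pairs, the Ahr coefficient and the difference of differences were called at 5%, the F-test at 0.1%. Errors of differences are standard errors with 16.3 degrees of freedom. Log values have no depth, so 4 arrays per group limit the precision. The fits were tested on simulated data. Named genes were all members, up to 4 F-test calls per list by smallest p, set defining markers and the 5 genes most correlated with Lox and with Col1a1. The members and lists were chosen with earlier results of these data known. Alternatives covered the variance prior, scaling, a filter on dim probes, blocks, thresholds, probe averaging and leaving out arrays.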

Additional observations from a re-analysis of the deposited data

Results flagged for a closer look

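Of 75 sets of 4 rats (15 ProbeSets in 5 groups), 8 held a reading far from the other 3 by Dixon's test, and chance flags about 1 set in 20. In Line-C, Lox read 3.12 in replicate 3 at 1368171_at, against 2.39 to 2.48 in the others, and 3.46 in replicate 1 at 1368172_a_at, against 3.67 to 3.70, all below the limit of expression. Col1a1 at 1370864_at read 3.69 in L-E replicate 1, against 3.39 to 3.44. Dcn read 5.98 in H/W replicate 3, against 2.38 to 2.95, and that array also stood apart over all ProbeSets. Lum read 4.82 in Line-C replicate 2, against 2.58 to 2.83. Bgn read 8.20 in S-D replicate 4, against 7.84 to 7.87. Timp1 read 4.50 in H/W replicate 3, against 4.62 to 4.65, and 4.12 in Line-A replicate 1, against 4.57 to 4.61.

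The contrast of a variant with a wild-type Ahr group differed between the parental strains and the lines at both Lox ProbeSets, by −8.43 log2 at 1368171_at (adjusted p = 0.0024) and by −4.24 log2 at 1368172_a_at (adjusted p = 0.0047).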

How the results depend on the processing

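No difference reversed under any alternative run. The Lox difference between the lines stayed between 6.65 and 6.71 over the other settings and between 6.41 and 6.86 over the fits that left out 1 array. With scan day as a random block, 1 ProbeSet was called for Line-A minus H/W, 1 for Line-A minus L-E, 0 for Line-C minus H/W and 1 for Line-C minus L-E, where 2.52%, 4.33%, 1.38% and 2.69% of all ProbeSets were called. With only the arrays of the 2 groups, an alternative added after the data were seen, the counts were 0 for Line-A minus H/W, 0 for Line-C minus H/W and 4 for H/W minus S-D. In these fits 1.85%, 0.747% and 3.5% of all ProbeSets were called. At 1% the counts were 1 for Line-A minus L-E, 0 for Line-C minus H/W and 1 for Line-C minus L-E (5.66%, 1.7% and 3.71% of all ProbeSets). Equal array medians gave 3 for Line-A minus L-E (24.1% of all ProbeSets). The F-test called more members at 5%, a looser threshold at which the share of all ProbeSets was not counted. Leaving out 1 array, counts ran from 0 to 3 (H/W minus L-E), 2 to 2 (Line-A minus Line-C, the difference of differences and the Ahr coefficient), 2 to 4 (Line-A minus H/W), 1 to 5 (Line-A minus L-E), 1 to 2 (Line-C minus H/W), 2 to 7 (Line-C minus L-E), 6 to 12 (H/W minus S-D), 7 to 11 (L-E minus S-D), 6 to 11 (Line-A minus S-D), 8 to 10 (Line-C minus S-D) and 4 to 8 (F-test). Lox H/W minus L-E ran from −2.92 to −0.98, the difference of differences from −9.59 to −7.65 and the Ahr coefficient from 6.38 to 6.88. Leaving out H/W replicate 3 gave 3 calls for H/W minus L-E, 2 for Line-C minus H/W and 7 for Line-C minus L-E, in fits that called 38.5%, 3.85% and 46.6% of all ProbeSets. Without that array 11, 8, 11 and 11 members were called for Line-A, Line-C, H/W and L-E minus S-D. The shares of all ProbeSets were then 57.5%, 49.5%, 45.9% and 10.2%, so a high count in such a fit is not a result about the members alone. Leaving out H/W replicate 4 gave 2 for Line-C minus H/W, where 5.34% of all ProbeSets were called. For Line-A minus L-E each array of either group mattered (1 without Line-A replicate 4, 2 or 3 without any other), in fits that called 9.12% to 28.8% of all ProbeSets. Line-C minus L-E had 2 without Line-C replicate 2 or replicate 3, where 7.44% and 6.24% of all ProbeSets were called. The causes were not tested.

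Same-numbered rats did not deviate together (median r = −0.01, range −0.34 to 0.22, 3 of 20 arrays closest to their own number), so the numbers pair nothing. With the replicate block the Lox difference between the lines was 6.67 (adjusted p = 0.0023). The counts were 7 for Line-A minus S-D, 9 for H/W minus S-D and 5 for the F-test (28.9%, 6.3% and 3.48% of all ProbeSets), and the other counts were the same. Of 52 called single differences, 23 lost their call under at least 1 of the other settings (19 under the random block, 16 with only 2 groups) and 13 without at least 1 array. Signals under the limit of expression have no reliable fold.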
